A study of Mus musculus with 16 samples.

Results

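The 7 genes described here encode subunits of the GABA-A receptor: the alpha subunits Gabra2, Gabra3, Gabra4 and Gabra5, the beta subunits Gabrb1 and Gabrb2, and the delta subunit Gabrd. They were taken by gene symbol and are 7 of the 17986 genes measured in all libraries. All 7 were among the 11892 genes tested, which reached at least 1 FPKM (fragments per kilobase of transcript, scaled to the depth of the library) in at least 2 libraries. RNA had been sequenced in bulk from CA1, a field of the hippocampus, cut by laser from frozen brain sections of male C57Bl6 mice aged 3 to 6 months. Mice were labelled wild type or Neil3-/-, a loss of the DNA glycosylase gene Neil3. Home cage mice had no intervention, and exploration mice spent 20 min per day for 1 week in an open field with 50 cm sides with death 20 min after the final session. The home cage groups had 2 libraries for each genotype label and the exploration groups had 3, with 1 mouse per library. The labels name no substrain of C57Bl6 and do not describe the Neil3 allele.

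GABA-A receptors are chloride channels opened by GABA, the main inhibitory transmitter of the brain. Each is a ring of subunits, commonly alpha and beta subunits with a gamma or a delta subunit, and the alpha subunit does much to set where the receptor sits and which drugs bind it. In CA1, receptors with the alpha2 subunit are known from synapses, including those on the start of the pyramidal cell axon, receptors with alpha5 are known mainly from outside the synapse, and delta subunits pair with alpha4 in receptors that carry a tonic current.

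Neil3 itself went against the labels. The WT-labelled home cage libraries listed it at 0 in both, and the WT-labelled exploration libraries at 0, 0 and 0.05 FPKM. In contrast, the KO-labelled home cage libraries held 13.8 and 15.2 FPKM of it, and the KO-labelled exploration libraries 15.1, 11.9 and 8.35 FPKM. Directions below therefore refer to libraries as labelled. Summed FPKM ran from 405718 to 466701 over the libraries, and the depth, estimated from the steps between low values, was 18880000 to 20040000 fragments. The summed level of 6 CA1 pyramidal markers was 641 to 780 FPKM in the 10 libraries. Within that list, Wfs1 had a mean of 96.1 ± 44.1 FPKM in the KO-labelled home cage libraries against 206 ± 18.8 FPKM in the WT-labelled ones (SD, n = 2 each, limma adjusted p = 0.0358), and Mpped1 had 227 ± 10.8 against 170 ± 18.9 FPKM (0.0387). Both calls were lost when WT-labelled home cage library 1, KO-labelled home cage library 2, WT-labelled exploration library 1 or 2 or KO-labelled exploration library 2 was left out, that of Wfs1 also for WT-labelled home cage library 2, and that of Mpped1 also for KO-labelled home cage library 1 and WT-labelled exploration library 3 (adjusted p of 0.0509 to 0.300). Of all genes, 3.57% were called in the home cage comparison. Between environments in KO-labelled CA1, 1 of the 6 was called higher after exploration and 4 lower, beside 28.6% of all genes called. Of 6 dentate granule cell markers, 1 reached 1 FPKM: Lct, at 5.44 and 1.06 FPKM in the KO-labelled home cage libraries and 10.4 to 22.3 FPKM in the other 8, while Prox1, which defines those cells, stood at 0.18 to 0.5 FPKM and was highest in a KO-labelled home cage library. The summed astrocyte markers were 58.0 to 64.0 FPKM in the WT-labelled home cage, 90.4 to 116 FPKM in the KO-labelled home cage, 69.1 to 88.9 FPKM in the WT-labelled exploration and 89.2 to 101 FPKM in the KO-labelled exploration libraries. In the same order the oligodendrocyte sums were 127 to 152, 174 to 211, 182 to 345 and 219 to 249 FPKM, and the microglia sums 24.5 to 25.2, 32.2 to 36.5, 31.8 to 38.2 and 34.7 to 38.6 FPKM. The endothelium sums were 18.7 to 19.3, 24.6 to 29.1, 19.8 to 25.8 and 20.6 to 25.6 FPKM. The sums of the WT-labelled home cage libraries were thus below all others for these 4 lists. Every microglia marker followed its sum. Aqp4 and Slc1a3 of the astrocyte list and Mog and Mag of the oligodendrocyte list overlapped other libraries. So did Cldn5, Flt1 and Pecam1 of the endothelium list. In the same order the interneuron sums were 215 to 239, 229 to 249, 304 to 363 and 280 to 342 FPKM. Those of 6 CA2 and CA3 markers were 165 to 202, 156 to 161, 186 to 195 and 178 to 206 FPKM. Of the 4 tested among them, Bok (means 4.76 and 29.2 FPKM) and Amigo2 (1.24 and 10.2 FPKM) were called higher after exploration in KO-labelled CA1. That comparison called 28.6% of all genes. Bok was also called in the test of a difference in that response between genotype labels, beside 0.875% of all genes. The part of these shifts in the results below was not tested. Home cage and exploration values come from separate tables, and an effect of environment and an effect of table cannot be told apart here.

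Gabra2, Gabra4 and Gabrb1 lie together on chromosome 5, in a cluster that also holds the gamma subunit gene Gabrg1. In GRCm38.p6, Gabra2 spans chr5:70958392-71095849 on the minus strand, Gabra4 spans chr5:71569734-71658308 on the minus strand, and Gabrb1 spans chr5:71657921-72149572 on the plus strand. The first bases of Gabra4 and Gabrb1 overlap by 388 bases head to head, and because the use of strand is not given in the sources used here, fragments from that overlap cannot be assigned to either gene with certainty. Gabra3 lies on chromosome X, Gabra5 on chromosome 7, Gabrb2 on chromosome 11 and Gabrd on chromosome 4. The promoter windows at the outermost start of the 3 members on chromosome 5 are shown because Gabra2 was called between genotype labels and its 2 neighbours were not. Each window is from RefSeq (GRCm38.p6), runs from 250 bases before to 50 after the start of the transcript, and is printed 5′ to 3′ on the strand of the gene, with every GGGCGG or its reverse CCGCCC, the GC box, in capitals.
Gabra2, chr5:71095800-71096099, minus strand: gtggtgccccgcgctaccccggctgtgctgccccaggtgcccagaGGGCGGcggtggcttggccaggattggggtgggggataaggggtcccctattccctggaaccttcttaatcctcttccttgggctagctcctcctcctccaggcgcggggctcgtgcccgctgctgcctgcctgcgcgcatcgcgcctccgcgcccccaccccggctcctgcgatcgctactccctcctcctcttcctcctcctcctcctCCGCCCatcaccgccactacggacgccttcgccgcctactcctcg
Gabra4, chr5:71658259-71658558, minus strand: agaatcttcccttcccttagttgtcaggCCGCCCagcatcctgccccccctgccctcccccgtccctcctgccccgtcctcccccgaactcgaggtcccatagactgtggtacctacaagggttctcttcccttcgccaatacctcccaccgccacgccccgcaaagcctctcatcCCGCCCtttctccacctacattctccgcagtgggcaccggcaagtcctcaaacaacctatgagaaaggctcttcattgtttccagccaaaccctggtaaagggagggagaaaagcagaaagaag
Gabrb1, chr5:71657671-71657970, plus strand: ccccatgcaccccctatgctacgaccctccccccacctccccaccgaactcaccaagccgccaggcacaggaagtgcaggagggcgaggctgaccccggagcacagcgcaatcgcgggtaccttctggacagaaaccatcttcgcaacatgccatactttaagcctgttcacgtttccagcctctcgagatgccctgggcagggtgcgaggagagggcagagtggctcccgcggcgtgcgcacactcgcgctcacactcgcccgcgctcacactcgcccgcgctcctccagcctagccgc
The Gabra2 window has a GC content of 70.0% and 25 CpG dinucleotides, with 2 GC boxes. The Gabra4 window has a GC content of 58.7% and 12 CpG, also with 2 GC boxes, and the Gabrb1 window has 66.0% and 25 CpG and no match on either strand. A second RefSeq window of Gabrb1, at chr5:71699682-71699981, has a GC content of 50.3%, 9 CpG and no match, and is not printed. A GC box was found in 35.7% of 32851 promoter windows of the same length, whose median GC content was 52.7% with 7 CpG, so a match is common and is given as a description. RefSeq windows were matched for 6 of the 7 members, and Gabrd is named only.

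Gabra5 was the most abundant member in every library. On the FPKM scale, which is per length, it stood at 242 and 264 in the WT-labelled home cage libraries, 241 and 206 in the KO-labelled home cage libraries, 223, 214 and 249 in the WT-labelled exploration libraries and 259, 255 and 265 in the KO-labelled exploration libraries. The highest value of any other member was 63.5 FPKM, for Gabrb2. In the WT-labelled libraries of both environments the order of mean levels was Gabra5, Gabrb2, Gabra2, Gabra4, Gabra3, Gabrd and Gabrb1, and no neighbours in that order had overlapping values. In the KO-labelled exploration libraries Gabra2 had moved from the 3rd to the 5th place, below Gabra4 and Gabra3, and again no neighbours overlapped. The KO-labelled home cage libraries had the order Gabra5, Gabrb2, Gabra3, Gabra2, Gabra4, Gabrd and Gabrb1, where Gabra3 overlapped Gabra2, Gabra2 overlapped Gabra4 and Gabrd overlapped Gabrb1. At the estimated depth the members' levels rest on 284 fragments or more per library, which gives a counting error of at most 5.93%, for Gabrd.

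**Figure D1:**
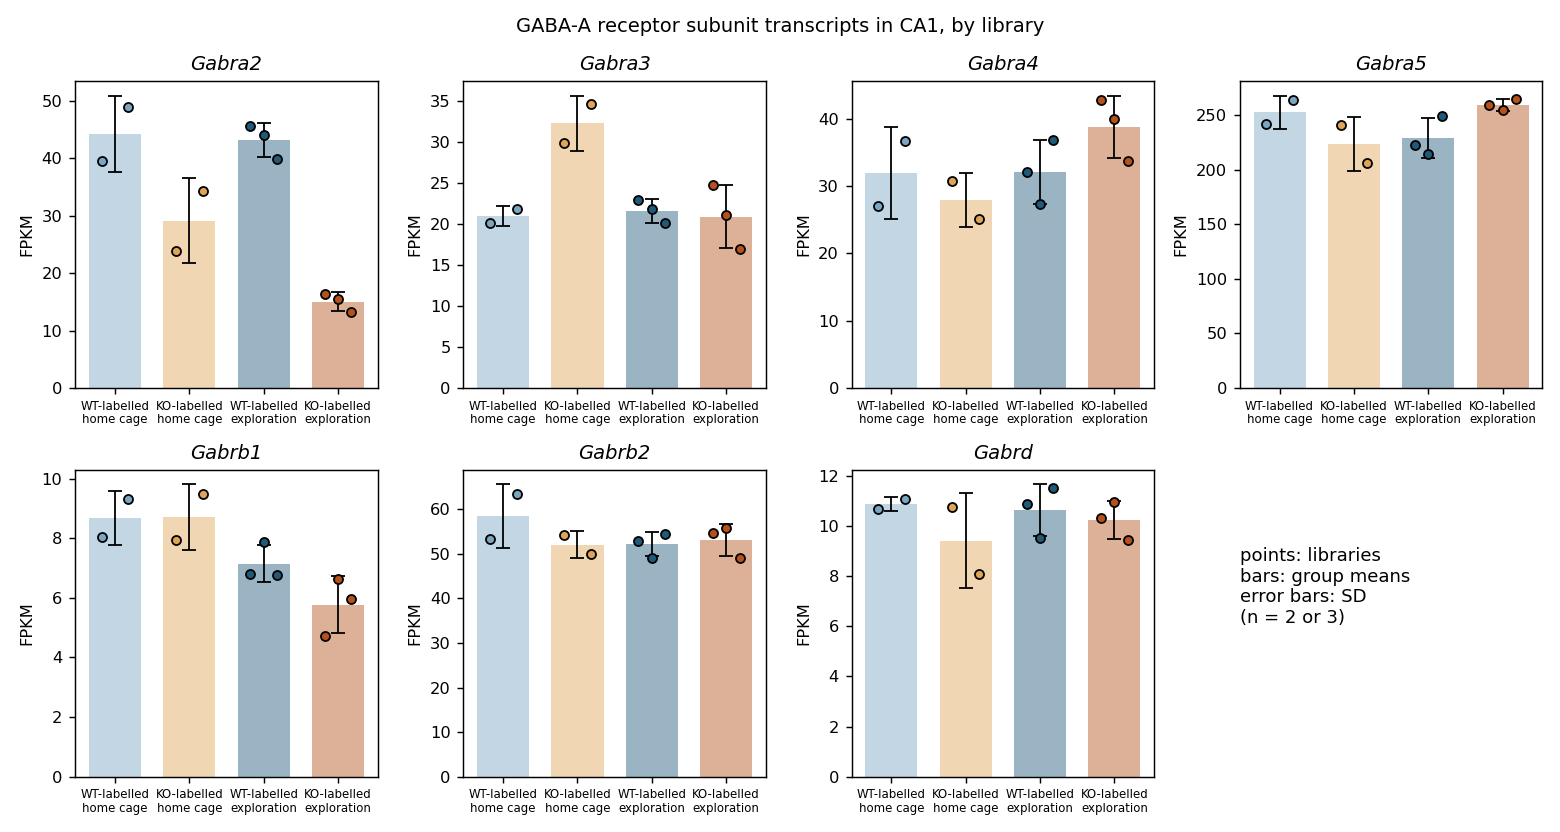
FPKM of the 7 subunit genes by library (points), with group means (bars) and SD (error bars, n = 2 in the home cage and 3 after exploration). Gabra2 is lowest in the 3 KO-labelled exploration libraries, at 13.2 to 16.4 FPKM, and Gabra3 is highest in the 2 KO-labelled home cage libraries, at 29.9 and 34.7 FPKM.

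Gabra2 had the largest difference between genotype labels among the members. After exploration the WT-labelled libraries held 45.7, 44.0 and 39.9 FPKM, and the KO-labelled ones 16.4, 15.5 and 13.2 FPKM. Every KO-labelled library was far below every WT-labelled library. The means were 43.2 ± 3.00 and 15.1 ± 1.66 FPKM (SD, n = 3 each), so the KO-labelled mean was 34.8% of the WT-labelled mean. The log2 change, here and below on the log2(FPKM + 1) scale, was -1.46 (SE 0.13), and limma's adjusted p was 0.000252. In the home cage the WT-labelled libraries held 39.5 and 49.0 FPKM of Gabra2, and the KO-labelled ones 23.9 and 34.4 FPKM. These groups did not overlap, but the replicates within each were far apart. The KO-labelled home cage mean of 29.1 ± 7.40 FPKM was 65.8% of the WT-labelled mean of 44.3 ± 6.69 FPKM (SD, n = 2 each). The log2 change of -0.60 (SE 0.16) missed the threshold of 0.05, with an adjusted p of 0.0642 in limma. It passed under size factors (adjusted p = 0.0487) and without KO-labelled exploration library 3 (0.0481), and over the leave-one-out fits the log2 change ran from -0.85 without KO-labelled home cage library 2 to -0.35 without KO-labelled home cage library 1. In bulk tissue, fewer cells that express a gene and less RNA per cell cannot be told apart.

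Averaged over both environments, Gabra2 was lower in the KO-labelled libraries by a log2 change of -1.03 (SE 0.10, limma adjusted p = 0.000458). Across the 15 alternative settings, the call after exploration held in 15, with log2 changes of -1.53 to -1.38. Gabra2 was the single member called in that comparison, 1 of 7, where 0.597% of all genes tested were called. The members' median log2 change there was -0.05, beside -0.01 over all genes. In the averaged comparison Gabra2 was again the 1 member called of 7, beside 2.13% of all genes.

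Genes near Gabra2 on chromosome 5 were examined in the same comparisons. Within 2 Mb of Gabra2, 11 other genes were tested, among them Gabrg1, Gabra4 and Gabrb1. None of the 11 was called in either genotype comparison. Of all genes, 3.57% were called in the home cage and 0.597% after exploration, so no call among so few genes is near those shares. Their log2 changes ran from -0.30 to 0.24 in the home cage and from -0.27 to 0.27 after exploration, against -0.60 and -1.46 for Gabra2.

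**Figure D2:**
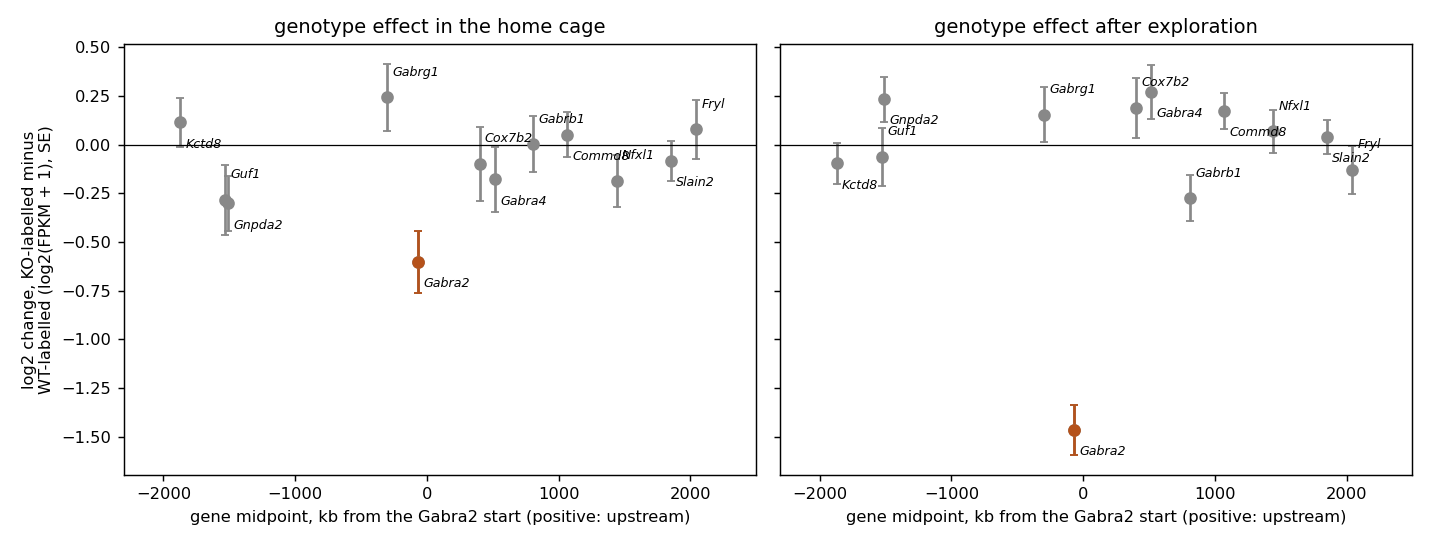
Log2 change between genotype labels (vertical axis, KO-labelled minus WT-labelled on log2(FPKM + 1), error bars SE) for the genes tested within 2 Mb of Gabra2, against the distance of each gene's midpoint from the Gabra2 start in kb. Gabra2, in orange, lies below all 11 other genes in both panels, at -0.60 in the home cage and -1.46 after exploration.

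Nnt, a mitochondrial transhydrogenase, Wdfy1, which encodes a FYVE domain protein, and Srp54c, one of several near-identical copies of a signal recognition particle gene whose fragments cannot be assigned with certainty, were read beside Gabra2. As background, substrains of C57Bl6 are known to differ in Nnt, in Wdfy1 and in the expression of Gabra2. All 3 were lower in the KO-labelled libraries in each of the 3 genotype comparisons. Wdfy1 stood at 8.51 and 9.58 FPKM in the WT-labelled home cage libraries, 2.38 and 2.87 in the KO-labelled home cage libraries, 8.12, 7.93 and 7.82 in the WT-labelled exploration libraries and 1.80, 1.74 and 1.11 in the KO-labelled exploration libraries. Nnt stood at 10.1 and 9.56, 4.05 and 4.62, 8.90, 9.97 and 8.49, and 5.26, 5.44 and 4.79 FPKM in the same order. No KO-labelled library reached a WT-labelled one for either gene. As a percent of the WT-labelled mean of the same environment, Gabra2 was at 54.0% and 77.7% in the KO-labelled home cage libraries and at 38.0%, 35.9% and 30.6% in the KO-labelled exploration libraries. Wdfy1 was at 26.3% and 31.7% in the first group and at 22.6%, 21.9% and 14.0% in the other, and Nnt was at 41.1% and 46.9% and at 57.7%, 59.6% and 52.5%. The genotype label and a difference in substrain cannot be told apart with these libraries.

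**Figure D3:**
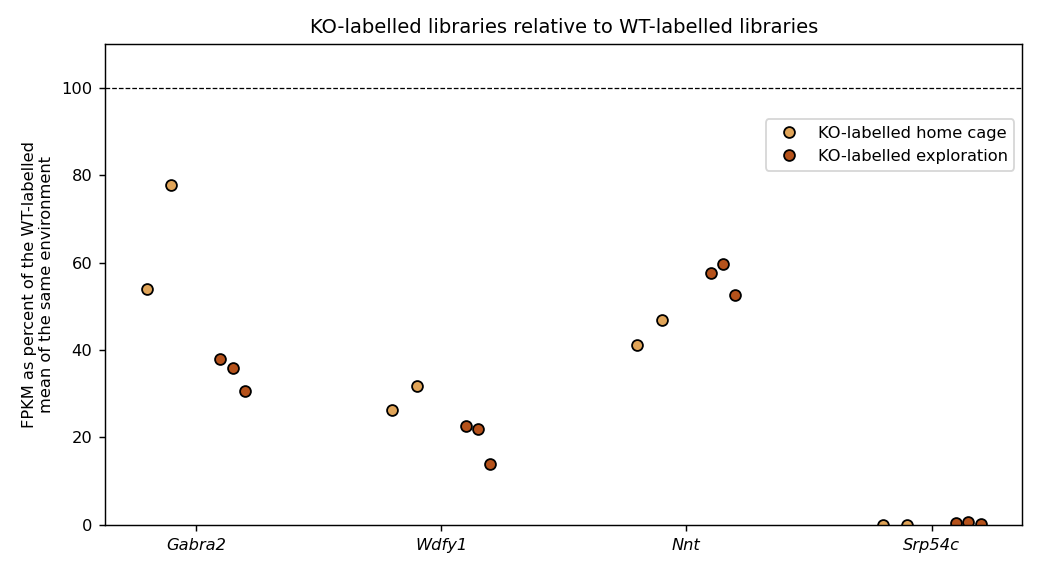
FPKM of each KO-labelled library as a percent of the WT-labelled mean of the same environment (vertical axis), for Gabra2, Wdfy1, Nnt and Srp54c. Points are libraries and the dashed line is the WT-labelled mean. All points lie below it, with Gabra2 between 30.6% and 77.7%.

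Gabra3 was the member that was higher in the KO-labelled home cage libraries. It stood at 20.1 and 21.8 FPKM in the WT-labelled home cage libraries, 29.9 and 34.7 in the KO-labelled home cage libraries, 22.9, 21.8 and 20.1 in the WT-labelled exploration libraries and 24.7, 21.1 and 16.9 in the KO-labelled exploration libraries. The 2 KO-labelled home cage libraries were above all the other 8, which overlapped. In the home cage the means were 32.3 ± 3.38 and 21.0 ± 1.26 FPKM (SD, n = 2 each), a ratio of 1.54, with a log2 change of 0.60 (SE 0.14) and an adjusted p of 0.0435 in limma. After exploration the change was -0.06 (adjusted p = 0.833). Gabra3 was 1 of 7 members called in the home cage comparison, where 3.57% of all genes were called. The members' median log2 change was -0.18, beside -0.02 over all genes. The home cage call was lost in 8 of the 10 leave-one-out fits. Without each home cage library in turn the log2 change was 0.54 (WT-labelled library 1, adjusted p = 0.261), 0.66 (WT-labelled library 2, 0.105), 0.70 (KO-labelled library 1, 0.0552) and 0.49 (KO-labelled library 2, 0.233). Without WT-labelled exploration library 1, 2 or 3 or KO-labelled exploration library 2 the change stayed at 0.60 with adjusted p-values of 0.0672, 0.0677, 0.0536 and 0.0706, and with no filter on low values it was 0.102. The astrocyte, oligodendrocyte, microglia and endothelium marker sums given above were also higher in the KO-labelled than in the WT-labelled home cage libraries. In the KO-labelled exploration libraries Gabra3 was at 16.9 to 24.7 FPKM. The astrocyte (89.2 to 101 FPKM), microglia (34.7 to 38.6 FPKM) and endothelium (20.6 to 25.6 FPKM) sums there overlapped those of the KO-labelled home cage. The oligodendrocyte sum, at 219 to 249 FPKM, was above its KO-labelled home cage values. Wfs1 was lower and Mpped1 higher in the same home cage comparison as Gabra3. The part of these genes and marker sums in the Gabra3 result was not tested.

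The other members did not pass the test between genotype labels. Gabra4 stood at 27.1 and 36.8 FPKM in the WT-labelled home cage libraries, 30.8 and 25.1 in the KO-labelled home cage libraries, 32.1, 27.4 and 36.8 in the WT-labelled exploration libraries and 42.8, 40.03 and 33.8 in the KO-labelled exploration libraries. Its groups overlapped between labels in both environments, with log2 changes of -0.18 (SE 0.17, limma adjusted p = 0.632) in the home cage and 0.27 (SE 0.14, 0.332) after exploration. Gabra5 had opposite signs in the 2 environments, -0.18 (SE 0.10, adjusted p = 0.369) and 0.18 (SE 0.08, 0.277), and its values did not overlap between labels in either. The beta subunit gene Gabrb1 stood at 8.05 and 9.33, 7.94 and 9.49, 6.80, 7.88 and 6.77, and 4.73, 6.62 and 5.96 FPKM in the 4 groups in the same order, and its KO-labelled exploration values lay just below the WT-labelled ones (log2 change -0.27, SE 0.12, adjusted p = 0.267). Gabrb2, the most abundant beta member, ranged from 53.4 to 63.5, 50.0 to 54.3, 49.1 to 54.4 and 49.1 to 55.8 FPKM in the 4 groups, with log2 changes of -0.16 (0.444) and 0.03 (0.899). Gabrd ranged from 10.7 to 11.1, 8.08 to 10.8, 9.52 to 11.5 and 9.44 to 10.96 FPKM, with log2 changes of -0.20 (0.453) and -0.05 (0.843). All groups of both genes overlapped between labels.

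**Figure D4:**
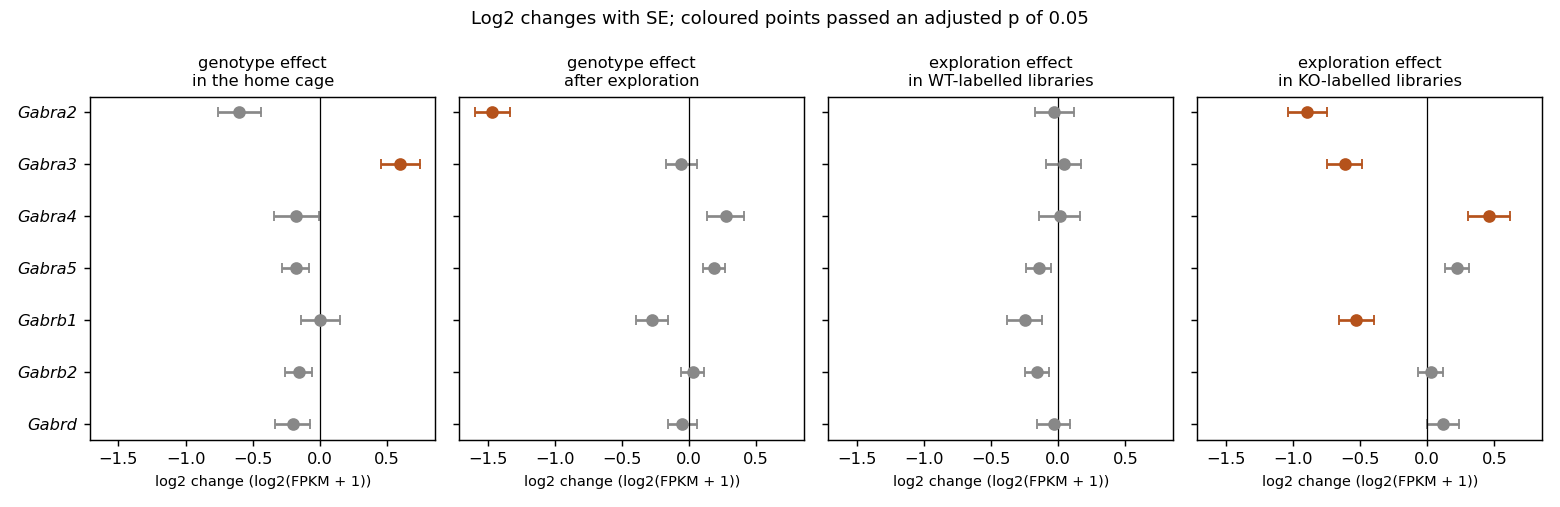
Log2 changes of the 7 subunit genes with their SE (horizontal axis, log2(FPKM + 1)) in the genotype comparisons (KO-labelled minus WT-labelled) and the environment comparisons (exploration minus home cage). Orange points passed an adjusted p of 0.05 in limma: Gabra3 at 0.60 in the home cage, Gabra2 at -1.46 after exploration, and Gabra2, Gabra3, Gabra4 and Gabrb1 between environments in the KO-labelled libraries.

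Between environments, no member was called in the WT-labelled libraries, and 4 were called in the KO-labelled libraries. In WT-labelled CA1 the 7 log2 changes ran from -0.25 for Gabrb1 (limma adjusted p = 0.289) to 0.04 for Gabra3 (0.887), and 6.31% of all genes were called. At an unadjusted p under 0.05 there were 0 of 7 members and 22.7% of all genes. The members' median was -0.03, beside -0.02 over all genes. In KO-labelled CA1, 28.6% of all genes were called, so 4 called members of 7 stand against a high background, and the members' median log2 change of 0.03 lay near that of all genes, -0.04.

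The largest of these changes was that of Gabra2, which fell from 29.1 to 15.1 FPKM, or to 51.6% (log2 change -0.89, SE 0.15, limma adjusted p = 0.00228). Both KO-labelled home cage libraries, at 23.9 and 34.4 FPKM, were above the 3 KO-labelled exploration libraries, and the call held under all 15 alternatives, with adjusted p-values of 0.000894 to 0.0404 and log2 changes of -1.15 to -0.64. Gabra3 fell to 64.8% of its home cage mean (-0.61, SE 0.13, 0.00671), a call lost without KO-labelled home cage library 2 (-0.51, 0.104). Gabrb1 fell to 66.2% (-0.53, SE 0.13, 0.0142), a call also lost without that library (-0.41, 0.166). Gabra4 was the member that rose, to 139% of the home cage mean (0.46, SE 0.15, 0.0431). Its call was lost without KO-labelled home cage library 2 (0.32, 0.339), KO-labelled exploration library 1 (0.39, 0.103) or 2 (0.44, 0.0966), or WT-labelled exploration library 1 (0.46, 0.0607), and with no filter (0.46, 0.0898). Gabra5 had a change of 0.22 that missed the threshold (adjusted p = 0.0903) and passed it without KO-labelled home cage library 1 (0.33, 0.0291). In each of the 4 called genes the KO-labelled exploration values did not overlap the KO-labelled home cage values. The same held for the uncalled Gabra5, so non-overlap did not set the called genes apart. How many of all genes tested did not overlap was not counted.

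Averaged over the genotype labels, 3 of 7 members were called between environments, all lower after exploration, where 31.9% of all genes were called. These were Gabra2 (-0.46, SE 0.10, limma adjusted p = 0.00696), Gabrb1 (-0.39, SE 0.09, 0.0100) and Gabra3 (-0.29, SE 0.09, 0.0346). The Gabrb1 call did not hold when the second home cage library of either label was left out (-0.34, 0.0534 for WT-labelled, -0.33, 0.0556 for KO-labelled). The Gabra3 call was lost in 6 of 10 leave-one-out fits: for WT-labelled home cage libraries 1 (-0.32, 0.0559) and 2 (-0.26, 0.122), KO-labelled home cage library 2 (-0.24, 0.148), WT-labelled exploration libraries 2 (-0.29, 0.0560) and 3 (-0.26, 0.0745) and KO-labelled exploration library 2 (-0.29, 0.0539), and also with no filter (0.0687).

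Whether the response to exploration differed between the genotype labels was tested directly, and no member was called, where 0.875% of all genes were. Gabra2 had the largest difference in response, -0.86 (SE 0.21), with a limma adjusted p of 0.0672. It passed when KO-labelled home cage library 1 (-1.12, 0.0134) or KO-labelled exploration library 1 (-0.93, 0.0425) was left out. Gabra3 had a difference of -0.66 (SE 0.19, adjusted p = 0.101), which passed without KO-labelled exploration library 1 (-0.78, 0.0293), and Gabra5 had 0.37 (SE 0.13, 0.180). At an unadjusted p under 0.05 there were 3 of 7 members, these 3, and 16.1% of all genes. The calls in KO-labelled CA1 and their absence in WT-labelled CA1 therefore do not show that the responses differed.

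As shares of the summed FPKM of the 4 alpha members, Gabra2 to Gabra5, Gabra2 was lowest in the KO-labelled exploration libraries. The sum itself was 350.04 ± 29.9 and 313 ± 17.98 FPKM in the WT-labelled and KO-labelled home cage libraries (SD, n = 2) and 326 ± 19.4 and 334 ± 7.48 FPKM in the WT-labelled and KO-labelled exploration libraries (SD, n = 3). Gabra2 made up 12.6% ± 0.832, 9.40% ± 2.91, 13.3% ± 1.57 and 4.50% ± 0.420 of it in that order. Gabra3 made up 5.99%, 10.4%, 6.65% and 6.24%, Gabra4 9.08%, 8.92%, 9.82% and 11.6%, and Gabra5 72.3%, 71.3%, 70.2% and 77.7%. In every library Gabra5 held at least 68.6% of the sum. Gabrb1 was 7.97% to 16.0% of the sum of the 2 beta members, Gabrb1 and Gabrb2, over the 10 libraries. These shares are descriptions with no test.

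**Figure D5:**
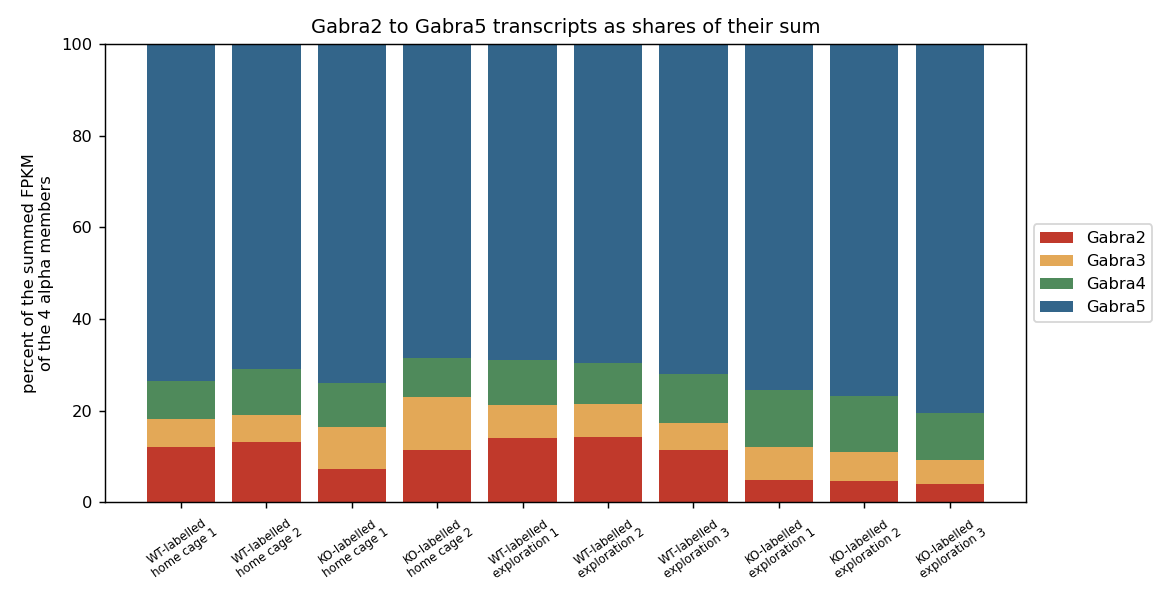
FPKM of Gabra2, Gabra3, Gabra4 and Gabra5 in each library as a percent of their sum (vertical axis, stacked bars). The Gabra2 segment, in red, averages 13.3% in the WT-labelled exploration libraries and 4.50% in the KO-labelled exploration libraries, while Gabra5 stays the largest segment in all 10 libraries.

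Other genes of GABA signalling were read from lists of 5 kinds. Among further GABA-A receptor subunit genes, the gamma subunit genes Gabrg1 and Gabrg3 were read, and neither was called in a genotype comparison. Gabrg3, at 1.48 ± 0.495 FPKM in the KO-labelled home cage libraries (SD, n = 2) and 0.737 ± 0.136 FPKM in the KO-labelled exploration libraries (SD, n = 3), was lower after exploration there (log2 change -0.50, limma adjusted p = 0.0336). That call was lost without KO-labelled exploration library 2 (-0.44, 0.0914) and with only the groups compared (0.0782). Gabrg3 reached 1 FPKM only in the 2 KO-labelled home cage libraries, at 1.13 and 1.83 FPKM. It thus passed the filter only through the group where it is high, so the call is given as a description.

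Of 14 genes for receptor assembly and anchoring, all were tested, and Shisa7, a transmembrane protein that binds GABA-A receptors, was the 1 called between genotype labels, lower in the KO-labelled libraries averaged over environments (-0.38, limma adjusted p = 0.0323), where 2.13% of all genes were called. Its means were 99.2 ± 3.96 and 75.1 ± 6.14 FPKM in the home cage (SD, n = 2) and 70.6 ± 1.57 and 54.9 ± 7.96 FPKM after exploration (SD, n = 3), WT-labelled first. That call was lost in 6 of 10 leave-one-out fits (all but those without KO-labelled home cage library 2 or a KO-labelled exploration library), at adjusted p-values of 0.0628 to 0.132. Shisa7 was also lower after exploration in WT-labelled CA1 (-0.48, 0.0235), a call lost without any 1 of the 5 WT-labelled libraries (0.0631 to 0.149). In KO-labelled CA1, 4 of the 14 were lower after exploration and 1 was higher, where 28.6% of all genes were called. Hap1, a trafficking protein (-1.79, 0.00222), Shisa7 (-0.45, 0.0109), Slitrk3, a synaptic adhesion protein (-0.45, 0.0421), and Nlgn2, the neuroligin of inhibitory synapses (-0.43, 0.00384) were lower, and Plcl1, a receptor-binding protein, was higher (0.50, 0.0207). Plcl1 lay near the filter of 1 FPKM, with means of 1.06 FPKM in the KO-labelled home cage and 1.93 FPKM after exploration. At such levels the log2(FPKM + 1) scale understates a change. Without KO-labelled home cage library 2 the calls of Shisa7 (-0.37, 0.136), Slitrk3 (-0.27, 0.387) and Plcl1 (0.52, 0.121) were lost. That of Plcl1 was also lost without KO-labelled home cage library 1 (0.0602), and that of Slitrk3 without either WT-labelled home cage library, WT-labelled exploration library 1 or 3, or KO-labelled exploration library 1 (0.0509 to 0.0997).

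Of 7 genes for GABA synthesis, transport and breakdown, Slc6a11, the GABA transporter found mainly on astrocytes, was the 1 called. It was higher in the KO-labelled home cage libraries, at 18.05 ± 1.58 against 12.2 ± 0.587 FPKM (SD, n = 2 each, log2 change 0.53, limma adjusted p = 0.0328), and lower after exploration in KO-labelled CA1 (-0.63, 0.00249), with a difference in response of -0.79 (0.0496). Of all genes, 3.57%, 28.6% and 0.875% were called in these comparisons, in that order. Calls in KO-labelled CA1, here and for Gabbr2 below, therefore stand against a high background. The home cage call was lost in 6 of 10 leave-one-out fits, those without either WT-labelled home cage library, KO-labelled home cage library 2, WT-labelled exploration library 1 or 2, or KO-labelled exploration library 2 (adjusted p of 0.0503 to 0.222), while the fall after exploration held in all 10. The astrocyte marker sum was higher in the same home cage libraries, 90.4 to 116 FPKM against 58.0 to 64.0 FPKM. In the KO-labelled exploration libraries that sum was 89.2 to 101 FPKM, overlapping the KO-labelled home cage, and Slc6a11 was at 62.6% of its KO-labelled home cage mean. The part of astrocyte content in the Slc6a11 results was not tested. Of the 2 GABA-B receptor genes, Gabbr2 was lower after exploration in KO-labelled CA1 (-0.59, 0.0109), a call lost without KO-labelled home cage library 2 (-0.41, 0.163), and neither of 2 chloride transporter genes was called in any of the 7 comparisons.

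The genes whose profiles over the 10 libraries were most like a called member's were found by the root mean square difference of centred log2(FPKM + 1) values, among 8226 genes with a mean of at least 5 FPKM. For Gabra2, whose own root mean square deviation was 0.66, they were Wdfy1 (0.33), Fam214a (0.34) and 1700047I17Rik2 (0.36). For Gabra3, whose deviation was 0.27, they were Il34 (0.062), Lin7a (0.066) and Caln1 (0.072). For Gabra4 (0.23) they were Rras (0.084), Diablo (0.086) and Triap1 (0.088), and for Gabrb1 (0.25) Nol4l (0.063), Ocrl (0.066) and Prrc2a (0.066). Il34 stood at 31.8 and 34.5 FPKM in the KO-labelled home cage libraries and at 17.5 to 23.8 FPKM in the other 8. It was chosen for its likeness to Gabra3 over these same libraries, so the shared high group is no separate finding.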

How the data were processed

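Values were FPKM per gene, as deposited by the authors, in a home cage table of 18257 genes and an exploration table of 19156 genes. Per the submitters' processing notes, HISAT, StringTie, GATK, Bowtie2 and RSEM were used with GRCm38 (mm10). Their roles, versions and use of strand, and whether the tables were normalized together, are not given in the sources used here. The tables were joined on gene ID (17986 shared genes). Of 16 labelled samples, 10 were used, and the 6 learning samples were not analysed here. Groups follow the genotype and environment labels.

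Genes reaching 1 FPKM in 2 or more libraries were each tested with limma 3.58.1 (R 4.3.3) on log2(FPKM + 1), which understates the change of low genes, with 1 mean per group, a variance trend, 6 residual and 5.71 prior degrees of freedom, and Benjamini-Hochberg adjustment over 11892 genes. A call is an adjusted p under 0.05. The code was tested on simulated data. Depth was inferred from the steps between low FPKM values. Members and lists were chosen with earlier results of these data known. All members, Neil3, and called genes of the lists (up to 5 per comparison) were named, with the 3 genes nearest in profile to each called member. Promoter sequences are RefSeq's. Some GABA-A receptor subunit genes are not reported here, so shares were taken over the alpha or beta members alone, a choice made after seeing the data.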

Additional observations from a re-analysis of the deposited data

Results flagged for a closer look

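Slc6a11, the astrocytic GABA transporter gene, had a response to exploration that differed between the genotype labels by a test of the difference itself, -0.79 (SE 0.15) on the log2(FPKM + 1) scale (limma adjusted p = 0.0496). It had a mean of 12.2 FPKM in the home cage and 13.7 FPKM after exploration in WT-labelled libraries, and 18.05 and 11.3 FPKM in KO-labelled libraries. The call was lost with a pseudocount of 0.1 (0.0591), with no filter on low values (0.123), and without each of the libraries but KO-labelled home cage library 1 and KO-labelled exploration library 1 (0.0503 to 0.223). The sum of astrocyte markers was 90.4 to 116 FPKM in the KO-labelled home cage libraries and 58.0 to 64.0 FPKM in the WT-labelled home cage libraries. After exploration it was 69.1 to 88.9 FPKM in the WT-labelled libraries and 89.2 to 101 FPKM in the KO-labelled libraries. That sum overlapped between environments in the KO-labelled libraries, and the part of astrocyte content in the Slc6a11 result was not tested.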

How the results depend on the processing

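Among member results under alternative settings, 653 kept their direction and side of the threshold, 25 lost a call, 7 gained one, and 29 uncalled values changed sign. Of called results of other genes read beside the members, 557 kept their call and 109 lost it, with no change of direction. Counts of called genes moved as follows. With no filter on low values they were 47 (genotype in the home cage), 16 (genotype after exploration), 54 (genotype averaged) and 0 (difference in response), in place of 425, 71, 253 and 104. With only the groups compared they were 37 (genotype after exploration), 1710 (exploration in WT-labelled libraries) and 1700 (exploration in KO-labelled libraries), in place of 71, 750 and 3400, and this fit was not run for the other comparisons that use all 4 groups. With a filter of 5 FPKM they were 492 (exploration in WT-labelled libraries) and 68 (difference in response), and with a pseudocount of 0.1 the difference in response gave 0. Leaving out each library in turn gave 13 to 588 genes for genotype in the home cage (13 without KO-labelled home cage library 2, 15 without WT-labelled home cage library 1), 17 to 104 for genotype after exploration (17 without any 1 WT-labelled exploration library), 28 to 319 for genotype averaged (lowest without WT-labelled home cage library 1), 84 to 1004 for exploration in WT-labelled libraries (WT-labelled home cage library 2), 505 to 3568 for exploration in KO-labelled libraries and 1916 to 4248 averaged (both KO-labelled home cage library 2), and 0 to 436 for the difference in response. The value 0 arose on leaving out WT-labelled home cage library 1, KO-labelled home cage library 2, WT-labelled exploration library 1 or KO-labelled exploration library 3. Omitting exploration library 2 left 1 gene (WT-labelled) or 2 genes (KO-labelled). Where a home cage group is left with 1 library, that library is assumed to vary like the others. No paired analysis was possible because the labels give no replicate number that groups share. At the estimated depth the counting error of the members is at most 5.93%, for Gabrd.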
